A study of Mus musculus with 22 samples.

Results

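Insulin-like growth factor (IGF) signalling was followed in the RNA-seq data of E13.5 forebrain through 10 genes, chosen by symbol as the ligands, receptors, binding proteins and adaptors of the pathway. All 10 were among the 24421 genes of the count table, and all 10 were also among the 15027 genes with enough counts to be tested. They are the ligand genes *Igf1* and *Igf2*, the receptor genes *Igf1r* and *Insr*, the binding protein genes *Igfbp2*, *Igfbp3*, *Igfbp4* and *Igfbp5*, and the adaptor genes *Irs1* and *Irs2*.

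The series examined how the transcriptional regulator PRDM16, a factor of cortical radial glia (RG), acts on gene expression. Forebrain RNA came from 3 *Prdm16* KO embryos, labelled as homozygous mutants, and from 3 control littermates, labelled as heterozygous or wild type and called wild type in the Materials and Methods. The KO alleles are gene traps (*cGT* and *cGTreinv*) kept by outcrossing to FVB/NJ, and the sources do not say which of them these embryos carried. The trap is constitutive, so the choroid plexus and every other cell of the forebrain carried it too. The labels name the forebrain as the tissue and the Materials and Methods the cortex, and they differ likewise in giving polyA RNA and a total RNA kit. All 8 forebrain identity markers had enough counts to be tested, against 1 of 8 hindbrain and spinal cord markers. Being tested takes counts in several libraries, so this does not describe any single library.

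IGF1 and IGF2 are secreted peptides that signal by binding the receptor tyrosine kinase IGF1R, and both can also act through the insulin receptor INSR. Activated receptors recruit the adaptors IRS1 and IRS2, which pass the signal to PI3-kinase and AKT. The IGF binding proteins (IGFBPs) hold the ligands outside the cell and either limit or prolong their access to the receptors. In the embryonic brain, IGF2 is carried by the cerebrospinal fluid to the apical surface of the progenitors and promotes their proliferation.

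The count table gives each library an animal number and no replicate number, and the animal numbers serve as names. Total counts ranged from 16638433 to 41140614 in KO and from 28569526 to 43066648 in control. KO F731, the shallowest library, stood apart. It detected 22991 genes, against 17795 to 18320 in the remaining libraries, and it took an end of the first principal component, which held 62.9% of the variance. It was the highest or the lowest of the 6 libraries for 76.8% of all genes tested. Its summed erythroid markers were at 5326 CPM, against 1474 to 1865 in the other 5 libraries. The ribosomal RNA gene *Rn45s* held 7.39% of its counts, against 0.224% to 2.43% in the others. Its 8 hindbrain and spinal cord markers summed to 5.92 CPM, within the 1.68 to 7.20 of the controls. Without *Gbx1*, the most abundant, they summed to 3.86 CPM, against 0.134 to 0.377 in the other 5 libraries. That sum was added after seeing the data. Fold changes are therefore given with and without KO F731. Wherever 3 values are given for a group, they stand in the order F727, F728, F731 for KO and F722, F724, F725 for control, as counts scaled to sequencing depth with TMM factors (CPM) unless another unit is named. For the targeted gene *Prdm16* the KO libraries held 9.60, 6.58 and 6.82 CPM and the controls 58.2, 45.0 and 37.8, so that no library went against its label.

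Of the 10 genes, *Igfbp5* alone was higher in every KO library than in every control library. This was so for 3.86% of all genes tested, and none of the 10 lay below every control, against 3.55% of all genes. Without KO F731 the same held, *Igfbp5* alone lying above every control, beside 7.3% of all genes above and 6.91% below. *Igfbp5* encodes a binding protein of the extracellular matrix and the cell surface. It was at 257, 247 and 163 CPM in KO, and at 135, 111 and 152 in control. KO F727 and F728 lay far above the controls, whereas KO F731 was only slightly above the highest control. The KO mean was 222 ± 51.8 and the control mean 133 ± 20.8 (SD, n = 3 each), a fold of 1.68, or of 1.90 without KO F731.

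**Figure D1:**
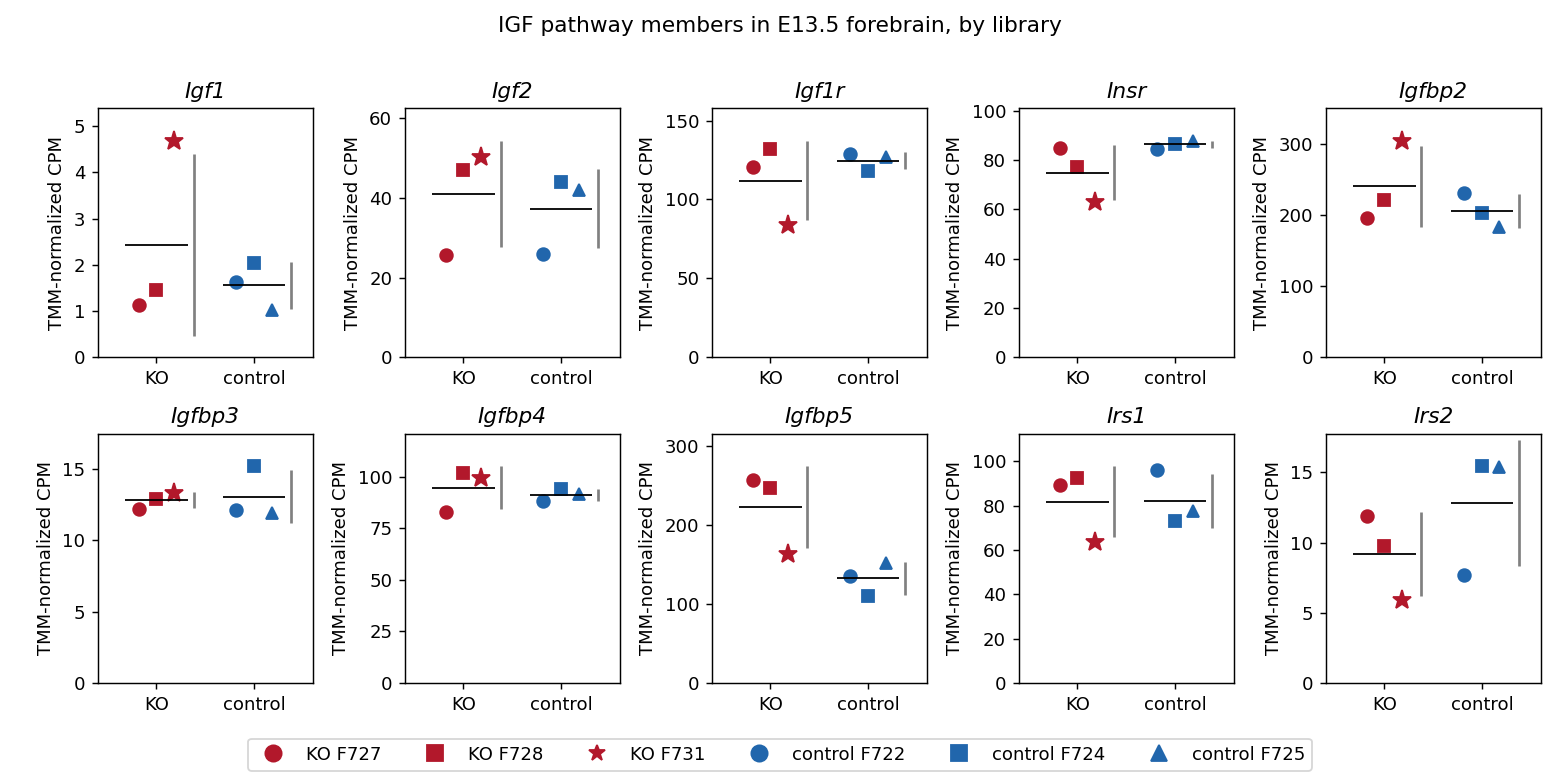
TMM-normalized CPM of the 10 genes in each of 3 KO (red) and 3 control (blue) forebrain libraries, with the group mean (black line) and SD (grey line). The KO libraries of *Igfbp5* sit at 163 to 257 CPM, above the controls at 111 to 152, while the groups overlap for the other 9 genes.

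In edgeR's quasi-likelihood test the log2 fold change of *Igfbp5* was 0.75 (standard error 0.20) over all 6 libraries. Its unadjusted *P*-value was 0.00575 and its *P*-value after Benjamini-Hochberg adjustment over all genes was 0.863. Without KO F731 the log2 fold change was 0.93 (standard error 0.12, edgeR adjusted *P*=0.288). DESeq2 gave an unadjusted *P*-value of 0.000575 and an adjusted one of 0.299 over all 6 libraries. At an adjusted *P*-value under 0.05 it called 0 of the 10 genes and, of all genes, 0.102% higher and 0.0128% lower. Without KO F731 DESeq2 gave 2.12e-08 and called 1 of the 10, *Igfbp5*, beside 0.144% of all genes higher and 0.0625% lower. *Igfbp5* was called in 1 of the 6 DESeq2 fits that left out a library, and its log2 fold change lay between 0.61 and 0.93 in all 12 such fits of edgeR and DESeq2. At an unadjusted *P*-value under 0.05 in edgeR, 1 of the 10 genes was higher and 0 lower, where 1.26% of all genes were higher and 0.665% lower. Without KO F731 these counts were again 1 and 0, beside 1.44% and 1.19% of all genes. The study also used DESeq2 but selected genes by unadjusted *P*-value and fold change. *Igfbp5* had been seen as higher in earlier results of these same libraries, so its direction here is not independent evidence.

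Levels of RG and neuronal markers are given beside *Igfbp5*. The summed level of 10 RG markers was 3597 to 3933 CPM in KO and 3265 to 3481 in control, so that the groups did not overlap. The abundant markers *Vim* and *Fabp7* carried this separation: the other 8 summed to 1531 to 1725 CPM in KO and 1488 to 1596 in control, which overlapped. Of the 10 markers 6 had a log2 fold change above 0, and 1, *Fabp7*, named after its value was seen, had an unadjusted *P*-value under 0.05 in edgeR. The summed level of 9 neuronal markers was 5107 to 5659 CPM in KO and 5761 to 6397 in control, with 9 of the 9 log2 fold changes below 0. Without *Tubb3*, the most abundant of them, the sums overlapped, at 3258 to 3803 CPM in KO and 3776 to 4352 in control. These sums without the most abundant markers were added after seeing the data. The part of these shifts in the *Igfbp5* value was not tested. In such bulk samples fewer cells of a type and less RNA per cell cannot be told apart.

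In the GRCm38 (mm10) annotation *Igfbp5* spans bases 72857932 to 72874884 of chromosome 1 and is transcribed from the minus strand. *Igfbp2* is its neighbour, from 72824503 to 72852474 on the plus strand, so that the genes lie tail to tail with 5457 bases between their annotated ends. The region around each start site is shown because in this pair the KO and control libraries separated for *Igfbp5* and overlapped for *Igfbp2*. The sequences run from 250 bases before the RefSeq start site to 50 after it, at chr1:72874816-72875115 (minus strand) for *Igfbp5* and chr1:72824230-72824529 (plus strand) for *Igfbp2*, in GRCm38.p6 as given by RefSeq.
Igfbp5: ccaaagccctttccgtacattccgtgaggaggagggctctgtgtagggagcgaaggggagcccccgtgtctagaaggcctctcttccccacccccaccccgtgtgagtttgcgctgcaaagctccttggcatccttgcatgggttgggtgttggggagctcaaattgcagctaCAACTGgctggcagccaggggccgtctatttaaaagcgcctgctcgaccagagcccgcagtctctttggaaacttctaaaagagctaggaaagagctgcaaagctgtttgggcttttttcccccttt
Igfbp2: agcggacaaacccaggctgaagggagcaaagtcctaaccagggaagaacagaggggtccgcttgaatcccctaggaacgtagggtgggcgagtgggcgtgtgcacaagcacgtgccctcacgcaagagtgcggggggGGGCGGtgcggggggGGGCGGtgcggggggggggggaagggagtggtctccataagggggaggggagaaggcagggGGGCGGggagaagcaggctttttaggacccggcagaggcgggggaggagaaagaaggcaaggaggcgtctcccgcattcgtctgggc

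Capitals mark the E-box CANNTG, a motif read by basic helix-loop-helix factors, in the *Igfbp5* sequence, and the GC box GGGCGG, a motif read by SP-family factors, in the *Igfbp2* sequence. Both strands were searched, and matches of the motifs searched did not overlap. *Igfbp5* held 1 E-box and 0 GC boxes, and *Igfbp2* held 1 E-box, left in lower case, and 3 GC boxes. The window held 10 CpG dinucleotides for *Igfbp5* and 18 for *Igfbp2*. Neither held an exact match to the TATA box TATAAA, and variants of it were not searched. Of 32851 RefSeq promoter windows of this length, 72.3% held the E-box, 35.7% the GC box and 13.6% the TATA box. These matches describe the letters of the windows and do not show binding.

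*Igfbp2*, which encodes the IGFBP found most in fetal tissues and neural progenitors, was at 195, 220 and 304 CPM in KO, and at 231, 203 and 183 in control. KO F731 was the highest library, and the other KO libraries lay within the range of the controls. The log2 fold change was 0.22 (standard error 0.18, edgeR adjusted *P*=0.863) over all 6 libraries and 0.01 (standard error 0.11) without KO F731. *Igfbp4*, whose product inhibits IGF action and is cut by the protease PAPPA, was at 83.0, 102.0 and 99.4 CPM in KO and at 88.3, 94.1 and 91.9 in control. The controls lay within the range of the KO libraries. The log2 fold change was 0.05 (standard error 0.11), or 0.02 without KO F731. *Igfbp3*, which encodes the main IGF carrier of the adult blood, was at 12.2, 12.9 and 13.3 CPM in KO and at 12.1, 15.2 and 11.9 in control. Its groups overlapped as well (log2 fold change -0.03, standard error 0.14, or -0.06 without KO F731).

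Per kilobase of exons, a scale on which genes can be compared, *Igfbp2* was the most abundant of the 10 genes. It was at 111 ± 13.1 CPM per kb (SD, n = 3) in control, above *Igfbp5* at 22.1 ± 3.46 and *Igfbp4* at 20.7 ± 0.665, which did not differ beyond their spread. *Irs1* followed at 8.99 ± 1.32, then *Igf1r* at 7.42 ± 0.331, *Igf2* at 6.52 ± 1.74 and *Insr* at 6.28 ± 0.115. The control libraries overlapped between *Igf1r* and *Igf2* and between *Igf2* and *Insr*, and did not overlap between *Irs1* and *Igf1r*. Below these were *Igfbp3* at 4.17 ± 0.584, *Irs2* at 2.03 ± 0.705 and *Igf1* at 0.157 ± 0.0514. In KO the order was the same but for *Igf2* and *Igf1r*, which changed places at 7.16 ± 2.33 and 6.67 ± 1.503. With the longest transcript as the length, *Igfbp4* came before *Igfbp5* in control but not in KO, and *Igf1r* came before *Irs1* in both groups. *Insr* came before *Irs1* and *Igf2* in control only. On this length *Igf1r* came before *Igf2* in both groups, so that these genes no longer changed places. The ends of the order, *Igfbp2* and *Igf1*, stayed in place.

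**Figure D2:**
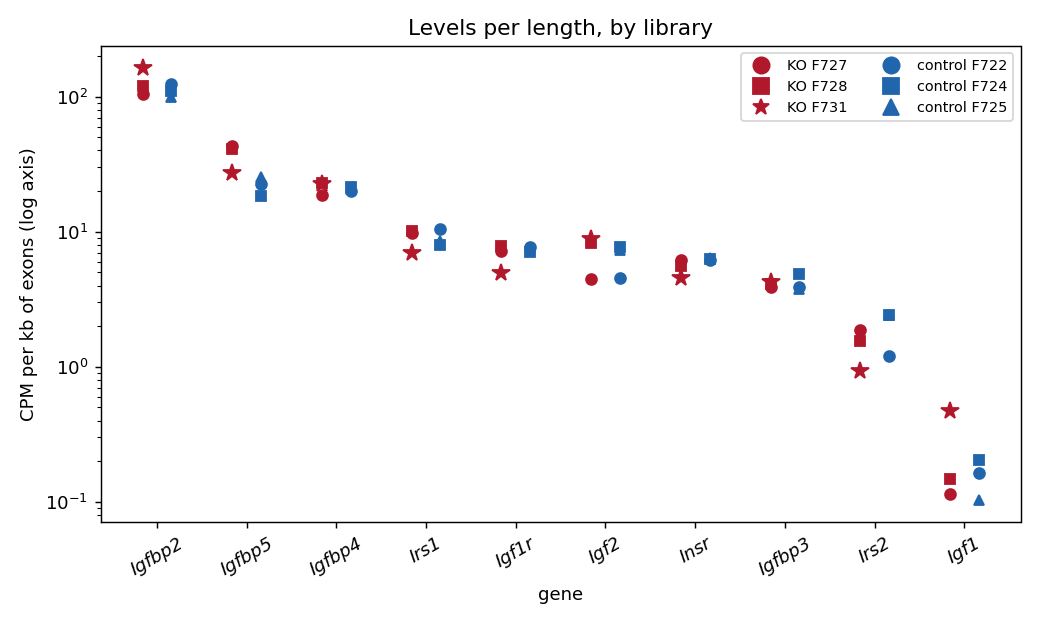
CPM per kilobase of exons (log axis) of the 10 genes in each KO (red) and control (blue) library, ordered by the control mean. *Igfbp2* sits at 99.0 to 165 CPM per kb and *Igf1* at 0.103 to 0.473, at opposite ends.

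Among *Igfbp2* to *Igfbp5*, summed per length within a library, *Igfbp2* made up 70.2 ± 3.36% (SD, n = 3) in control and 66.9 ± 7.39% in KO. *Igfbp5* made up 25.0%, 21.9% and 12.4% in KO, and 13.1%, 11.9% and 17.01% in control. KO F727 and F728 lay above the controls and KO F731 within their range. The share was 5.78 percentage points higher in KO over all 6 libraries (two-sided exact permutation *P*=0.3, adjusted *P*=0.8 over 4 ratios) and 9.47 without KO F731. With 3 against 3 libraries this test cannot go below 0.1.

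*Igf2*, the main fetal ligand, was at 25.7, 46.9 and 50.3 CPM in KO, and at 25.9, 43.9 and 42.1 in control. Each group held 1 low library, and the groups overlapped. The log2 fold change was 0.13 (standard error 0.29, edgeR adjusted *P*=0.902), and -0.04 (standard error 0.30) without KO F731. *Igf2* is also an imprinted gene, expressed from the paternal allele in most but not all tissues. The alleles were not told apart here. Among the other imprinted genes of the pathway, *Igf2r*, which encodes a receptor that clears IGF2, was at -0.06 on the log2 scale (standard error 0.15) and *Grb10*, which encodes an inhibitor of receptor signalling, at -0.06 (standard error 0.16), neither passing the test. Without KO F731 these values were 0.08 and 0.10.

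The spread of *Igf2* within the groups went with markers of meninges and fibroblasts, cell types in which *Igf2* is abundant. The summed level of 12 such markers was 18.4, 65.8 and 102.9 CPM in KO, and 20.2, 71.8 and 58.1 in control. The libraries that were lowest in *Igf2*, KO F727 and control F722, were also lowest in these markers, and KO F731 was highest in both. None of these markers was at 0 in every library. The match was not particular to meninges and fibroblasts. The summed level of 10 endothelium markers was 115, 125 and 196 CPM in KO, and 108, 139 and 134 in control. KO F727 and control F722 were again lowest and KO F731 highest. The part of either list in the *Igf2* values was not tested. Markers of the choroid plexus, another source of *Igf2*, summed to 16.4 to 36.6 CPM in KO and 17.01 to 23.8 in control, with *Otx2* making up most of the control sums. Without *Otx2* the other 9 summed to 6.77, 10.6 and 26.6 CPM in KO and 4.82, 3.24 and 9.28 in control, an order of libraries unlike that of *Igf2*. The paper reports from stained sections that the choroid plexus is strongly reduced in *Prdm16* KO brains. Neither marker sum here set the KO group below control, and the reason was not tested.

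*Igf1* was the least abundant, with 41, 62 and 68 counts in KO and 56, 91 and 30 counts in control. These came to 1.13, 1.46 and 4.68 CPM in KO and 1.63, 2.03 and 1.02 in control. KO F731 lay above all other libraries, and the other KO libraries lay within the range of the controls. The log2 fold change was 0.55 (standard error 0.56, edgeR adjusted *P*=0.863) over all 6 libraries and turned to -0.28 (standard error 0.32) without KO F731. The summed level of 9 microglia markers, a cell type that makes *Igf1*, was 66.6 CPM in KO F731 and 34.1 to 38.5 in the other 5 libraries. KO F731 was also highest in the sums of choroid plexus, meninges and fibroblast, endothelium, pericyte and erythroid markers. In the other libraries the microglia sums were 37.2 and 34.1 CPM in KO and 34.5, 38.5 and 36.2 in control. That order of libraries was unlike that of *Igf1*. The part of the microglia markers in the *Igf1* value was not tested. *Igf2* exceeded *Igf1* per length in every library, by 5.10 ± 0.807 (SD, n = 3) on the log2 scale in KO and 5.39 ± 0.702 in control (exact permutation *P*=0.8, adjusted *P*=0.9).

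**Figure D3:**
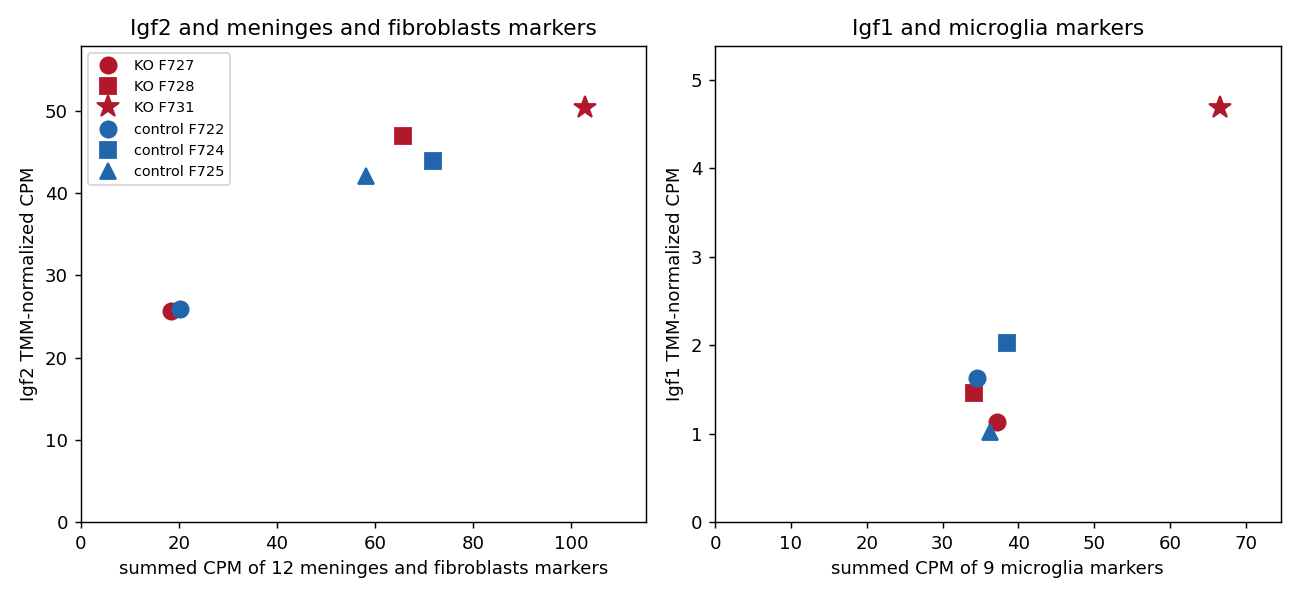
TMM-normalized CPM of *Igf2* against the summed CPM of 12 meninges and fibroblast markers (left) and of *Igf1* against that of 9 microglia markers (right), 1 point per library (KO red, control blue). KO F727 and control F722 sit lowest on the left, at 25.7 and 25.9 CPM of *Igf2*, and KO F731 sits apart on the right, at 4.68 CPM of *Igf1*.

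The receptor gene *Igf1r* was at 120, 132 and 83.6 CPM in KO, and at 129, 118 and 127 in control. KO F731 was the lowest library, and the other KO libraries lay around the controls. The log2 fold change was -0.15 (standard error 0.17, edgeR adjusted *P*=0.863) over all 6 libraries and 0.02 (standard error 0.07) without KO F731. *Insr*, the insulin receptor gene, was at 84.8, 77.0 and 63.0 CPM in KO and at 84.7, 86.6 and 87.9 in control. Only KO F727 reached the range of the controls, and the log2 fold change was -0.20 (standard error 0.12), or -0.09 (standard error 0.07) without KO F731. The log2 ratio of *Igf1r* to *Insr* per length was 0.27 ± 0.19 (SD, n = 3) in KO and 0.24 ± 0.08 in control (exact permutation *P*=0.9, adjusted *P*=0.9).

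The adaptor gene *Irs1* was at 89.2, 92.7 and 63.6 CPM in KO, and at 95.8, 73.0 and 77.7 in control. KO F731 was again the lowest, and the log2 fold change was -0.0035 (standard error 0.17) over all 6 libraries and 0.15 (standard error 0.12) without it. *Irs2* was at 11.9, 9.78 and 5.92 CPM in KO and at 7.67, 15.4 and 15.4 in control. Control F722 lay among the KO libraries, so the groups overlapped. The log2 fold change was -0.46 (standard error 0.33, edgeR adjusted *P*=0.863), -0.25 (standard error 0.30) without KO F731 and -0.73 without control F722. The log2 ratio of *Irs1* to *Irs2* per length was 2.66 ± 0.261 (SD, n = 3) in KO and 2.21 ± 0.783 in control (exact permutation *P*=0.4, adjusted *P*=0.8).

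**Figure D4:**
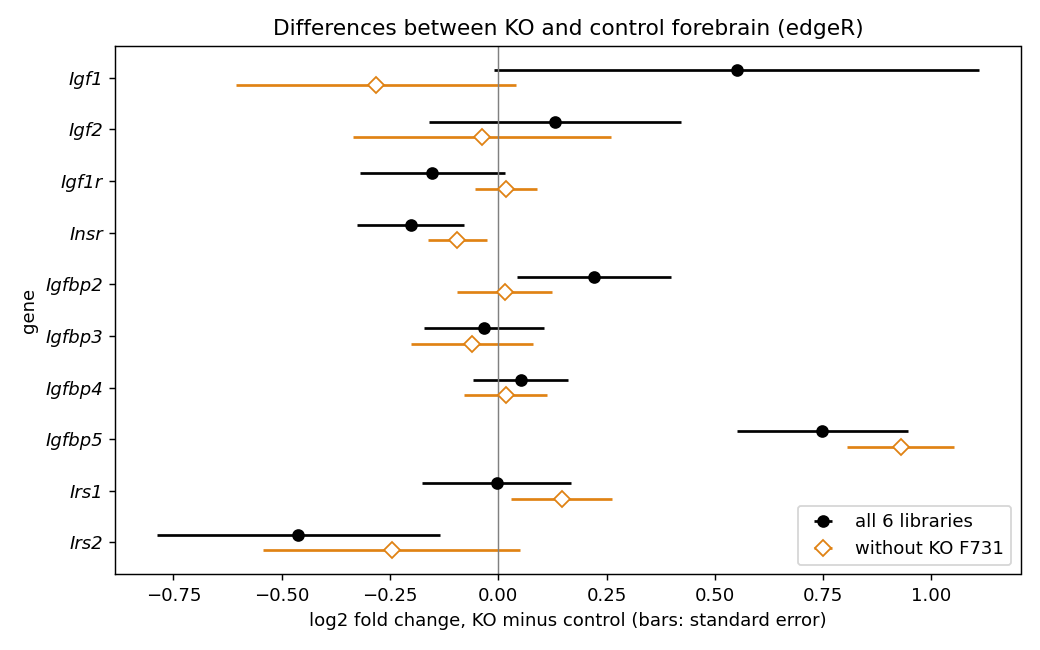
Log2 fold change of KO minus control for the 10 genes in edgeR, over all 6 libraries (black circles) and without KO F731 (open diamonds), with standard errors as bars. *Igfbp5* lies at 0.75 and 0.93, and without KO F731 the other 9 genes lie between -0.28 and 0.15.

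Over all 6 libraries 5 of the 10 log2 fold changes were positive, as were 49.2% of those of all genes tested. Their median was 0.02, beside -0.0037 for all genes. KO F731 was the highest library for 3 of them, *Igf1*, *Igf2* and *Igfbp2*, and the lowest for 4, *Igf1r*, *Insr*, *Irs1* and *Irs2*, a share near the 76.8% of all genes. Counts of *Igf1*, *Igf2*, *Insr*, *Irs1* and *Irs2* may hold reads of overlapping genes, such as *Igf1os* and *Igf2os* on the other strand, since the strand setting of the counting was not stated. No annotated gene overlaps *Igf1r* or any of the binding protein genes.

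The genes whose profile over the 6 libraries was nearest to that of *Igfbp5*, by Euclidean distance of centred log2 CPM among 10095 other genes at 10 CPM or more, were *Fzd7*, *Flrt3* and *Epdr1*. *Fzd7* encodes a Wnt receptor and lay at a distance of 0.39. It was at 35.2, 27.7 and 21.7 CPM in KO and at 21.3, 15.4 and 23.2 in control. *Flrt3*, which encodes an adhesion and guidance protein, lay at 0.47, with 62.8, 57.5 and 45.0 CPM in KO and 40.2, 36.6 and 49.1 in control. *Epdr1* lay at 0.50, with 36.1, 36.1 and 25.7 CPM in KO and 20.2, 23.8 and 22.6 in control. In *Fzd7* and *Flrt3* KO F731 overlapped the controls, unlike in *Igfbp5* and *Epdr1*.

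The list of other genes of the IGF and insulin pathway held 51 genes, of which 45 could be tested. In edgeR 0 of them passed an adjusted *P*-value under 0.05 and 0 had an unadjusted *P*-value under 0.05, over all 6 libraries or without KO F731. Of all genes 1.26% were higher and 0.665% lower at the unadjusted threshold, or 1.44% and 1.19% without KO F731. In DESeq2, which was run without a filter on low counts, 0 of the 51 passed after adjustment over all 6 libraries. There 1 of the 51, *Igfbp6*, which is not among the 45, had an unadjusted *P*-value under 0.05. It was higher in KO, as were 705 of all 23331 genes at this threshold. Over all 6 libraries 11 of the 45 log2 fold changes were positive and 34 negative (median -0.10). KO F731 was the lowest library for 31 of the 45, where it was the lowest for 38.5% of all genes. Without it 19 were positive and 26 negative (median -0.02).

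**Figure D5:**
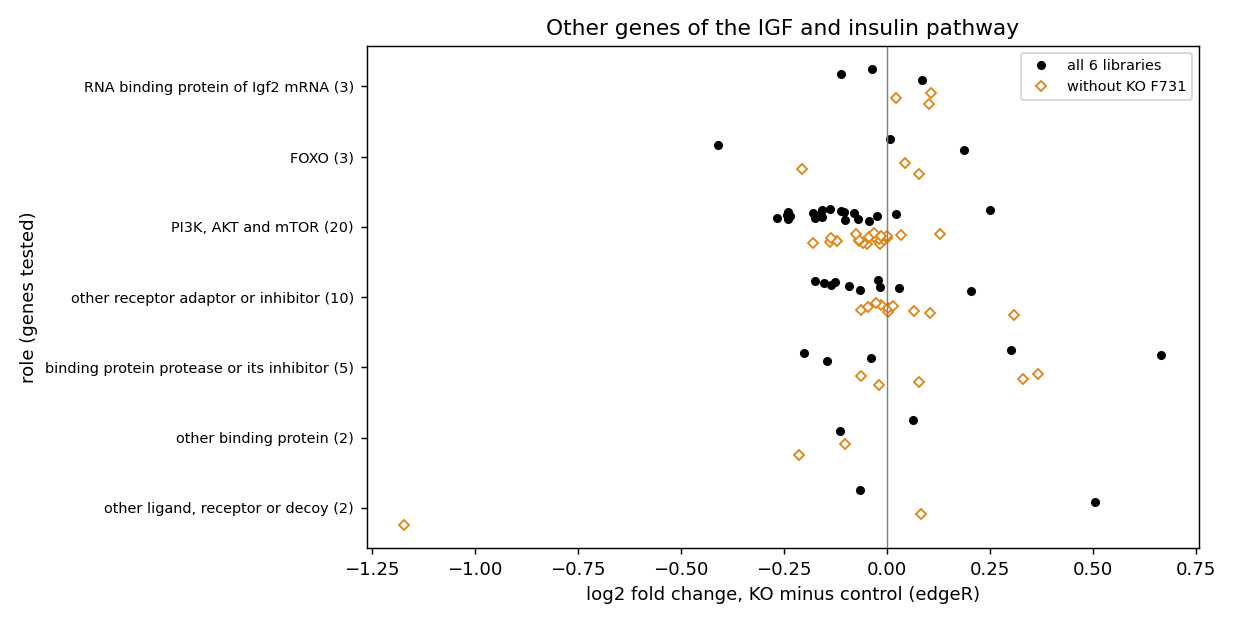
Log2 fold change of KO minus control in edgeR for the 45 tested genes of the wider pathway, by role, over all 6 libraries (black) and without KO F731 (open diamonds). The median moves from -0.10 to -0.02 when KO F731 is left out.

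Among the effector genes of PI3-kinase, AKT and mTOR, 2 of 20 were positive and 18 negative over all 6 libraries (median -0.15). Without KO F731 4 were positive and 16 negative (median -0.04). The most abundant per length was *Akt1*, a kinase gene downstream of PI3-kinase, at 82.4 ± 9.63 CPM per kb (SD, n = 3) in KO and 91.9 ± 0.243 in control. Every KO library lay below every control for *Akt1* (log2 fold change -0.16, standard error 0.11), for *Pik3r2*, a regulatory subunit of PI3-kinase named after its values were seen, and for the receptor adaptor gene *Grb2* (log2 fold change -0.09, standard error 0.09). These were 3 of the 45 genes, where 3.55% of all genes were so. *Gsk3a*, a kinase gene inhibited by AKT, was at -0.16 on the log2 scale (standard error 0.11). Without KO F731 the log2 fold changes of *Akt1*, *Grb2* and *Gsk3a* were -0.07, -0.06 and -0.07.

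*Igfbpl1*, which encodes an IGFBP-like protein, was the most abundant of the other binding proteins, at 204 ± 38.4 CPM per kb (SD, n = 3) in KO and 195 ± 17.2 in control, above *Igfbp2* on the same scale. *Igfbp7* was at 13.8 ± 1.80 and 14.9 ± 1.46. Neither passed the test (log2 fold changes 0.06 and -0.11, or -0.10 and -0.21 without KO F731). *Igfbp6*, named after its values had been seen, had 11, 7 and 15 counts in KO and 1, 1 and 2 counts in control, too few to be tested in edgeR over all 6 libraries. *Htra1*, which encodes a secreted protease that can cut IGFBPs, was at 0.67 on the log2 scale (standard error 0.52), and at 0.33 without KO F731. *Pappa2*, a protease gene of the PAPPA family that cuts IGFBP5, was at -0.04 (standard error 0.20), and at 0.08 without KO F731. The insulin genes *Ins1* and *Ins2*, named after their values were seen, had 0 counts in all libraries but KO F731. The insulin receptor-related gene *Insrr* was at 0.51 (standard error 0.95) and turned to -1.17 without KO F731. Both values of *Insrr* rest on few counts, 5, 15 and 33 in KO and 10, 35 and 18 in control. *Foxo4* and *Foxo1*, transcription factor genes of the pathway, had log2 fold changes of 0.01 and 0.19, or 0.04 and 0.08 without KO F731. *Igf2bp2* and *Igf2bp3*, whose products bind *Igf2* mRNA, were at -0.11 and -0.04, and at 0.02 and 0.11 without KO F731.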

How the data were processed

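RNA-seq of E13.5 forebrain was analysed from 1 table of gene counts. Per the labels and methods, the authors removed adaptors (Trimmomatic), mapped reads to the mm10 genome (HISAT2) and used the iGenomes UCSC annotation, and the deposited values are raw counts. The counting program and its strand setting were not stated. Of the columns, 6 match the RNA-seq labels by genotype and tissue, and 18 were not used here. ChIP-seq and ATAC-seq samples were not analysed here.

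Counts were filtered by filterByExpr (minimum count 10), scaled by TMM and tested with edgeR 4.0.16 (glmQLFit, robust, and glmQLFTest) in R 4.3.3. Benjamini-Hochberg adjustment was over all genes, with 0.05 as the threshold. The standard error of a log2 fold change was derived from it and the F statistic. Replicates carry separate animal numbers, *P*-values measure only the spread between these libraries, and errors are SD. The tests were tried on simulated data. Alternatives were DESeq2 1.42.0, limma-voom 3.58.1 with and without quality weights, other scalings and filters, and leaving out each library. In all, 22 fits across genes were made. Lengths and positions come from GENCODE vM21 (GRCm38), matched by symbol.

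Named were the 10 members, the wider pathway genes with an unadjusted *P*-value under 0.05 or the 2 highest levels per role, and the 3 genes nearest to *Igfbp5*. Markers are given as sums. The members and lists were chosen with earlier results of these data known.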

Additional observations from a re-analysis of the deposited data

How the results depend on the processing

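*Igfbp5* kept its direction in every alternative fit, and 1 member, *Igfbp5*, passed an adjusted *P*-value under 0.05 in DESeq2 without KO F731, so that the number of members called higher ranged from 0 to 1 with 1 library left out. The number of members lower at an unadjusted *P*-value under 0.05 ranged from 0 to 1, the 1 being *Irs2* without control F722. In that setting 157 of all 15348 genes were lower at this threshold in edgeR, and 124 of 23309 in DESeq2. In the wider pathway 1 gene, *Igfbp6*, was higher at an unadjusted *P*-value under 0.05 in DESeq2 and in edgeR without a filter. Of all 23331 genes, 705 were higher at this threshold in DESeq2 and 491 in edgeR without a filter. Leaving out a library gave 0 to 2 genes higher, *Igfbp6* and in 1 fit *Igfals*, and 0 to 3 lower, among them *Pdpk1* and *Pik3r1*, all without KO F727. DESeq2 without KO F727, which gave the 2 and the 3, had 1421 higher and 402 lower of all 23300 genes. Limma-voom with quality weights gave 1 higher, *Stc2*, and 4 lower, *Insrr*, *Pik3r1*, *Pik3r3* and *Tsc1*. That fit had 492 higher and 600 lower of all 15027 genes at the same unadjusted threshold. None of the wider pathway genes named here passed after adjustment. The alternatives for the wider pathway beyond DESeq2, RLE factors and edgeR with a library left out were chosen after seeing the data, and the genes in this paragraph were named after their values were seen. Over all genes edgeR called 0 with its filter and 1 lower, *Prdm16*, without it, DESeq2 16 higher and 2 lower, and limma-voom with quality weights 10 higher and 2 lower. Without a filter the median log2 fold change of all genes was 0.15 in DESeq2 and 0.13 in edgeR. The sign of 6 members turned in some fits. The log2 fold change of *Igf1*, 0.55 in edgeR, was 0.0837 with limma-voom. With limma-voom and quality weights it was -0.047 for *Igf1*, -0.101 for *Igf2* and 0.0101 for *Igf1r*. That of *Irs1* was 0.207 with these weights, 0.00409 with limma-voom, 0.000206 with RLE factors, 0.0189 with upper-quartile factors, 0.0123 with the filter at 1 CPM and 0.000156 without *Rn45s*, histone and structural RNA genes. Over the fits that each omitted a library, *Igf1* ranged from -0.282 to 0.904, *Igf2* from -0.0905 to 0.378, *Igf1r* from -0.31 to 0.0181, *Igfbp3* from -0.119 to 0.0872, *Igfbp4* from -0.0359 to 0.136 and *Irs1* from -0.127 to 0.146. The causes were not tested. No paired analysis was possible because the columns carry no replicate numbers. *Igf1*, with 30 to 91 counts a library, is limited by depth. *Prdm16* had an adjusted *P*-value of 0.0536 in edgeR, 0.000724 without a filter and 7.08e-24 in DESeq2.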
